A study of Mus musculus with 50 samples.

Results

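The 10 genes described here were Fos, Fosb, Junb, Egr1, Egr2, Egr3, Arc, Npas4, Nr4a1 and Nr4a3, the immediate early genes that neurons switch on within minutes of activity. They were chosen by name from 24552 genes with counts, and all 10 were counted in every library and passed the filter on low counts in every model. In GRCm38 with the GENCODE vM21 annotation each is a protein-coding gene: Fos lies at chr12:85473890-85477273, Fosb at chr7:19302696-19310051, Junb at chr8:84974484-84978718, Egr1 at chr18:34859823-34864984, Egr2 at chr10:67535475-67542188, Egr3 at chr14:70077203-70082614, Arc at chr15:74669083-74672570, Npas4 at chr19:4984355-4990316, Nr4a1 at chr15:101254269-101274795 and Nr4a3 at chr4:48045153-48086447. They were compared between 2 types of medium spiny neuron (MSN), between ribosome-bound and total RNA, between stress groups and between libraries with and without a floxed Sirt1 allele.

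RNA came from the nucleus accumbens (NAc) of C57BL/6 RiboTag (RT) mice, in which Cre adds an HA tag to a ribosomal protein, so that an HA antibody pulls down ribosome-bound mRNA (IP) from Cre-expressing cells, while the saved remainder (input) holds RNA of all NAc cells. The lines were RT; D1-Cre and RT; D2-Cre, aged 8 to 12 weeks, and each library came from a pool of 2 mice. Stressed mice met an aggressor daily for up to 10 days (the length of a meeting differs between the labels and the methods), were scored 24 h after the last defeat in a social interaction test and were sorted into susceptible (Sus) and resilient (Res) mice, whereas controls (Con) were housed with their own strain. Of the D1-IP libraries 4 were Con, 4 Res and 5 Sus (13 in all), and D2-IP had 5 in each group (15 in all); beside these there were 9 D1-inputs and 9 D2-inputs (3 in each group), and 4 undefeated D1-IP libraries from male RT; Sirt1-floxed; D1-Cre mice of unstated age. Cre marks any cell that expresses the driver, pooling hides differences between the 2 mice, and the labels do not say whether same-numbered IP and input came from 1 homogenate. The time between the last handling and tissue collection was not given in the sources used here.

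Libraries held 18384265 to 31009626 counts on genes in the stress experiment and 22174187 to 31785984 in the table with the Sirt1-floxed libraries. The lowest count of an immediate early gene was 24, for Egr2 in an input, and counting error limits the precision of Egr2 most. Levels are given as CPM, counts per 1000000 of a scaled library total (defined below). Drd1 was 332 ± 29.4 CPM in D1-IP and 134 ± 21.2 CPM in D2-IP (SD, n = 13 and 15). Drd2 was 97.8 ± 11.9 and 344 ± 27.7 CPM, so each IP held more mRNA of its own receptor than the other IP did, but also mRNA of the other receptor. Mean Drd2 was 78.2 ± 11.4 CPM in D1-input, below D1-IP, and mean Drd1 was 170 ± 18.7 CPM in D2-input, above D2-IP. The sum of 6 D2-MSN markers was 2027 to 3363 CPM in D1-IP and 888 to 1544 CPM in D1-input. The summed level of 6 cortical excitatory neuron markers was 389 to 1408 CPM in D1-IP and 25.1 to 311 CPM in D2-IP. The sum of 5 cholinergic interneuron markers was 7.42 to 29.7 CPM in D1-IP and 58.2 to 130 CPM in D2-IP, and that of 6 astrocyte markers was 45.2 to 92.2 and 36.3 to 63.0 CPM against 852 to 1178 and 814 to 980 CPM in the inputs. The part that these other cells play in the levels below was not tested.

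Immediate early genes need no new protein to be transcribed: calcium and kinase signals act on factors already bound to their promoters, such as CREB at cyclic AMP response elements (CRE) and SRF at CArG boxes. Most of the 10 encode transcription factors. Fos, Fosb and Junb form AP-1 dimers, Egr1, Egr2 and Egr3 are zinc-finger factors, Npas4 is a neuron-specific factor induced by calcium, and Nr4a1 and Nr4a3 are orphan nuclear receptors. Arc instead encodes a protein that acts at the synapse in the removal of AMPA receptors. In the striatum these genes are widely used as a readout of recent dopamine and glutamate input.

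Promoter windows of 250 bases upstream of a start site in the RefSeq table (GRCm38.p6) were found for 7 of the 10 genes, all but Egr1, Egr3 and Arc. The 4 below carry the CRE core, as all 7 genes did, and the windows shown overlap no annotated exon, unlike those of Fosb, Npas4 and Nr4a3. They include the gene with the widest spread between pools (Fos), a pair that moved closely with it or with Egr1 (Junb, Nr4a1) and the lowest expressed member (Egr2). Capitals mark the CRE core TGACG, or CGTCA where it lies on the other strand, and in Egr2 also a CArG box.
Fos promoter (chr12:85473640-85473889, plus strand): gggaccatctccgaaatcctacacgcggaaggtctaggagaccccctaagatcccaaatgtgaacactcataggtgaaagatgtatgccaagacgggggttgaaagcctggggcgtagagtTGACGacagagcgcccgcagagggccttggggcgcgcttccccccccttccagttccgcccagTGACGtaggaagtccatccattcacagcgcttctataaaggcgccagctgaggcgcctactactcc
Junb promoter (chr8:84978749-84978998, minus strand): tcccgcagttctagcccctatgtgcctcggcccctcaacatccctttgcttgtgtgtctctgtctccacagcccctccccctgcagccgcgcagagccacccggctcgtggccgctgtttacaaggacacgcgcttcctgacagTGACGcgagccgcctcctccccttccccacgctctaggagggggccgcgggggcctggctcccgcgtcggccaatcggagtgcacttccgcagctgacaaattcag
Egr2 promoter (chr10:67537619-67537868, plus strand): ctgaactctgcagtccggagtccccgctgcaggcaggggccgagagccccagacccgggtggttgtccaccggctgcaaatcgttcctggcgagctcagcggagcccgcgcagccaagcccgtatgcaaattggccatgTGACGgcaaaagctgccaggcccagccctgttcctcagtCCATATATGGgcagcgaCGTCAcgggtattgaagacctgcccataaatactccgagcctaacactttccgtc
Nr4a1 promoter (chr15:101266596-101266845, plus strand): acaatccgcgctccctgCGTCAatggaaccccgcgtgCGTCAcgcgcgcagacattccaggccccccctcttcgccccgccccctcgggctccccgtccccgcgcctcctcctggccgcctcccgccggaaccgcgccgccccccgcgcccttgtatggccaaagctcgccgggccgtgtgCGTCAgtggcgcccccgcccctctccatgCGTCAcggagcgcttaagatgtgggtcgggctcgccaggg

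The CRE core, searched on both strands, was in a window of 7 of the 7 genes, against 19.8% of 27025 genes with such a window. The full palindrome TGACGTCA was in 0 of the 7 (1.77% of genes). A CArG box was found in Egr2 alone (1.62% of genes). The AP-1 site (5.16% of genes), the NR4A element AAAGGTCA (1.55%) and the EGR element GCGTGGGCG (0.622%) were in 0 of the 7. These are matches of letters in 1 stretch of each promoter, and enhancers and more distant sites were not searched.

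Levels between genes were compared as CPM per kilobase of exon. In D1-IP Egr1 was highest at 64.6 ± 9.14 (SD, n = 13), followed by Egr3 (35.3 ± 2.32), Junb (32.4 ± 6.00), Arc (24.7 ± 8.04) and Nr4a1 (20.4 ± 5.16). The others were lower by several fold, with Fos at 5.12 ± 2.28, Nr4a3 at 4.73 ± 1.13, Fosb at 2.90 ± 0.405, Npas4 at 2.37 ± 0.703 and Egr2 at 1.69 ± 0.389 CPM per kilobase. D2-IP had nearly the same order of levels per kilobase, from Egr1 (76.5 ± 14.0, n = 15) to Egr2 (1.98 ± 0.684). In both IPs Egr3 and Junb, Arc and Nr4a1, and Fos and Nr4a3 did not differ beyond their spread. That is, the mean log2 difference within libraries was smaller than its SD, which is not a test. In D1-IP Egr3 lay above Junb in 8 of 13 libraries, Arc above Nr4a1 in 11 of 13 and Fos above Nr4a3 in 7 of 13. Fosb and Npas4 changed places in D2-IP, where Npas4 was above Fosb in 7 of 15 libraries, while Fosb was above Npas4 in 11 of 13 D1-IP libraries. Neither order held beyond the spread, nor did that of Nr4a3 and Npas4 in D2-IP, with Nr4a3 above in 12 of 15 libraries.

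Inputs kept Egr1 (27.3 ± 3.63 CPM per kilobase in D1-input, n = 9) and Egr3 (22.4 ± 2.08) at the top. Npas4 ranked differently there. It stood at 4.58 ± 1.17 CPM per kilobase in D1-input and 4.74 ± 0.777 in D2-input, above Nr4a3 in 9 of 9 libraries of each line, while in the IPs it lay among the lowest 3. Junb and Arc, and Nr4a3 and Fos, did not differ beyond their spread in the inputs.

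**Figure D1:**
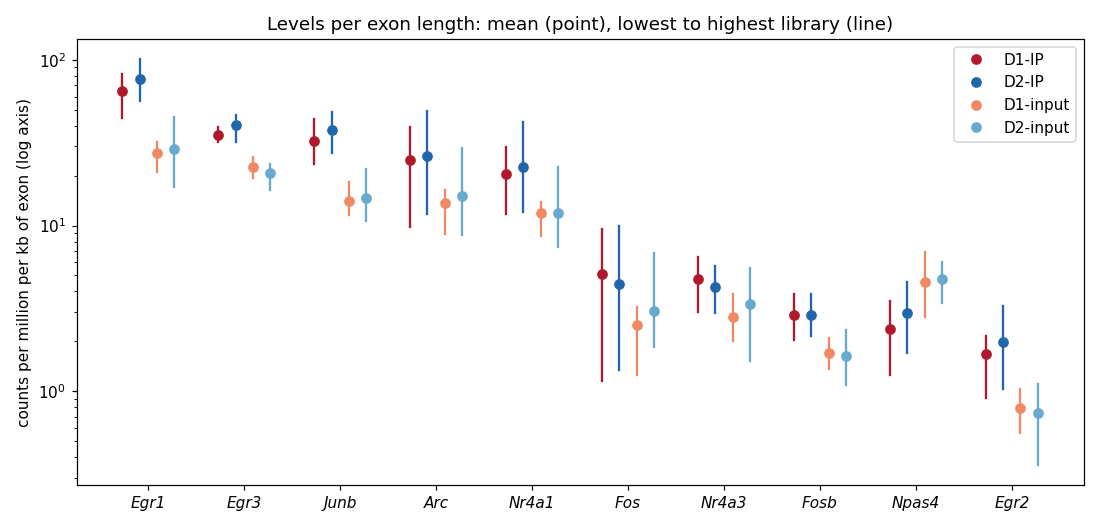
Levels of the 10 genes per kilobase of exon on a log axis, with 1 colour for each of D1-IP, D2-IP, D1-input and D2-input; points are means and lines run from the lowest to the highest library. Egr1 leads in all 4 (64.6 CPM per kilobase in D1-IP), and Npas4 is the gene whose inputs lie above its IPs.

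IP was compared with input to ask which of these mRNAs were enriched in the IPs, which also held mRNA of the other MSN type (above). In the D1 line 9 of 10 genes were higher in IP, where 39.2% of all 15404 genes tested were, and 1, Npas4, was lower, as were 42.7% of genes. In the D2 line 7 were higher (37.8% of genes), Npas4 was lower (44.9% of genes), and Fos and Nr4a3 did not pass. The median log2 fold change of the 10 was 0.81 in the D1 line and 0.86 in the D2 line, against -0.04 and -0.08 for all genes. The TMM scaling used assumes that most genes do not change, which did not hold between IP and input. Scaled by library totals alone, Fos was 0.40 in the D2 line against 0.53 with TMM, and Nr4a3 0.23 against 0.34. The fold sizes therefore depend on the scaling. In bulk RNA fewer cells of a type and less RNA per cell cannot be told apart. The glial markers were far higher in the inputs (above), and 5 of 5 general MSN markers were higher in IP in each line, with median log2 fold changes of 0.92 and 1.28, and the part of this in the values of the 10 genes was not tested.

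Egr1 had the highest fold change of the 10 in the D1 line. It ranged from 200.0 CPM through a median of 299 to 369 CPM in D1-IP, and from 94.6 through 124 to 142 CPM in D1-input. The groups did not overlap, and the log2 fold change was 1.24 ± 0.12 (SE, adjusted p = 2.16e-12, edgeR). In the D2 line Egr1 ran from 253 through 334 to 452 CPM in IP and from 77.1 through 124 to 202 CPM in input (log2 fold change 1.39 ± 0.12, adjusted p = 4.7e-14, edgeR). Junb (1.20 ± 0.12 and 1.35 ± 0.12) and Egr3 were the only other members whose IPs and inputs did not overlap in either line, so 3 of 10 did not overlap in each line, against 48.3% of genes in the D1 line and 44.3% in the D2 line.

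Egr3, a target of Egr1 and other activity-dependent factors, was 140.0 to 173 CPM in D1-IP (median 158) and 85.0 to 114 CPM in D1-input (median 97.2). In the D2 line it was 141 to 205 CPM in IP (median 177) and 72.2 to 104 CPM in input (median 90.01). Its log2 fold change of IP against input was therefore 0.66 ± 0.06 in the D1 line and 0.96 ± 0.06 in the D2 line. It was the 1 member of 10 whose enrichment differed between the lines (difference -0.30 ± 0.08, adjusted p = 0.00563, edgeR), which 25.5% of genes did. With Con libraries alone the difference had the same size (-0.30, adjusted p = 0.173) but did not pass. The median enrichment of the general MSN markers was also higher in the D2 line (above), and its part in Egr3 was not tested.

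Npas4 went the other way from the rest. It ranged from 5.16 through 9.36 to 14.5 CPM in D1-IP and from 11.6 through 18.5 to 28.6 CPM in D1-input, so that the groups overlapped in part (log2 fold change -0.95 ± 0.16, adjusted p = 1.88e-06, edgeR). In the D2 line it was 7.00 through 11.8 to 18.7 CPM in IP and 14.1 through 19.5 to 24.9 CPM in input (-0.69 ± 0.16, adjusted p = 0.000122). Among libraries of the same number, Npas4 was lower in IP in 9 of 9 of the D1 line and in all but 1 of 9 of the D2 line. The cortical marker sum was 264 to 1276 CPM in D1-input and 93.9 to 1117 CPM in D2-input, ranges that overlapped those of both IPs, and its part was not tested.

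Fos overlapped widely. D1-IP ran from 2.72 through 10.6 to 22.5 CPM and D1-input from 2.95 through 6.15 to 7.62 CPM (log2 fold change 1.02 ± 0.30, adjusted p = 0.00196, edgeR). D2-IP ran from 3.16 through 9.45 to 23.3 CPM, and D2-input from 4.32 through 5.54 to 16.0 CPM, a log2 fold change of 0.53 ± 0.29 with an adjusted p of 0.0844. The highest input for Fos was D2-input Sus 3, which was also the highest of the 18 inputs for 8 of 10 members, with Egr1 at 202, Arc at 90.2 and Nr4a1 at 79.6 CPM. Without that library the Fos value in the D2 line was 0.88 with an adjusted p of 0.00578, and 6 other libraries, left out in turn, also brought it under the threshold.

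Nr4a3 was 18.1 through 28.4 to 38.6 CPM in D1-IP and 12.0 through 16.3 to 23.1 CPM in D1-input (0.75 ± 0.17, adjusted p = 0.000152, edgeR). In the D2 line it was 17.9 through 24.8 to 34.0 CPM in IP and 9.15 through 18.9 to 33.1 CPM in input (0.34 ± 0.17, adjusted p = 0.0550). Leaving out 1 library at a time brought the second value under the threshold in 32 of 46 fits. The remaining genes, Fosb (0.77 and 0.81), Egr2 (1.09 and 1.41), Arc (0.85 and 0.81) and Nr4a1 (0.77 and 0.91 on the log2 scale, D1 line first), were higher in IP in both lines.

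**Figure D2:**
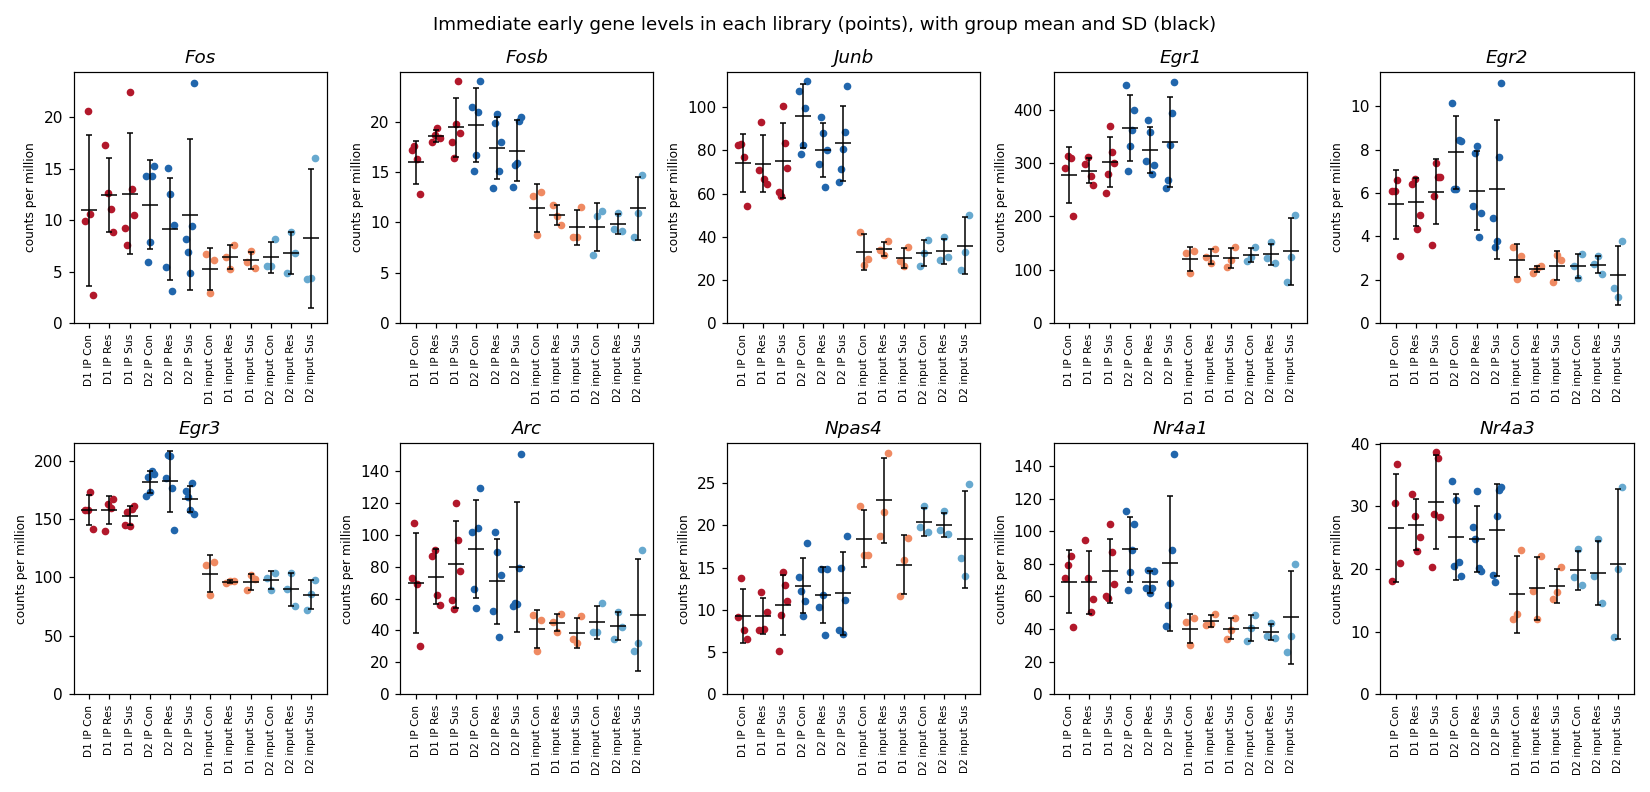
CPM of each of the 10 genes in the 46 libraries (points) by line, fraction and stress group, with the group mean and SD in black and an axis from 0. IPs lie above inputs for most genes, Npas4 is the exception, and D2-input Sus 3 is the high input point for Fos (16.0 CPM) and Arc (90.2 CPM).

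D1-IP was set against D2-IP, over the mean of the 3 stress groups, to ask whether the 2 MSN types carry different levels. Egr1, Junb and Egr3 were lower in D1-IP, and 0 members were higher. Of all 14224 genes tested, 21.3% were lower and 19.6% higher in D1-IP, so 3 of 10 lower is near that background. The differences were small. The median log2 difference of the 10 genes was -0.18, against -0.02 for all genes, and 2 of 10 had a positive sign.

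Egr3 was 140.0 to 173 CPM in D1-IP with a median of 158 and 141 to 205 CPM in D2-IP with a median of 177, a log2 difference of -0.19 ± 0.04 (adjusted p = 0.000781, edgeR), or 1.14-fold higher in D2-IP. Egr1 was -0.26 ± 0.09 (adjusted p = 0.0152), 1.20-fold higher in D2-IP. The ranges of the 2 types overlapped for both, and both passed in 28 of 28 fits that left out 1 library. Junb was 54.3 through 71.9 to 101 CPM in D1-IP and 63.2 through 82.7 to 112 CPM in D2-IP, at -0.23 ± 0.09 with an adjusted p of 0.0490. Its call was lost with RLE size factors (adjusted p = 0.0545), with both other filters on low counts (0.0579 and 0.0590) and with DESeq2 (0.0703), and it passed in 11 of 28 fits without 1 library, with the largest adjusted p (0.108) without D1-IP Con 4.

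Npas4 had the largest difference of the 10 but also a wide spread, at 5.16 to 14.5 CPM in D1-IP and 7.00 to 18.7 CPM in D2-IP (-0.34 ± 0.16, adjusted p = 0.0932, edgeR). Egr2 (-0.24 ± 0.16), Nr4a1 (-0.16 ± 0.15), Arc (-0.11 ± 0.19) and Fosb (-0.02 ± 0.08) had smaller values on the log2 scale that did not pass. Fos (0.20 ± 0.26) and Nr4a3 (0.13 ± 0.12) had a positive sign. The cortical marker sum, whose genes all 6 were higher in D1-IP with a median log2 difference of 1.79, was opposite in direction to Egr1, Egr3 and Junb. The general MSN markers had the same direction as these 3 genes: 5 of 5 were lower in D1-IP, with a median log2 difference of -0.38 and sums of 3839 to 5807 CPM in D1-IP against 5375 to 6837 CPM in D2-IP. The part of either marker list in these values was not tested.

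Within single stress groups no member passed with all libraries. In Con 0 of 10 were called (14% of genes), and 4 of 10 had an unadjusted p under 0.05 (27% of genes), namely Fosb, Junb, Egr1 and Egr3, each lower in D1-IP. In Res 0 were called (17.5% of genes) and 1, Egr3, had an unadjusted p under 0.05 (30.3%). In Sus 0 were called (17.6%) and 0 had an unadjusted p under 0.05 (29.8%). Egr3 was lower in D1-IP by similar amounts in the 3 groups, at -0.22 ± 0.08, -0.22 ± 0.08 and -0.14 ± 0.07 on the log2 scale for Con, Res and Sus. Egr1 was -0.41 ± 0.15, -0.19 ± 0.15 and -0.18 ± 0.14. Egr3 was close to the threshold in Res (adjusted p = 0.0501) and Con (0.0598, edgeR), and of 28 fits without 1 library it passed in 5 for Res and 3 for Con, and Egr1 in 2 for Con (0.0708 with all libraries).

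The inputs give the background of the 2 lines for all NAc cells. There 0 of 10 members differed between D1-input and D2-input (0.0202% of 14820 genes), and 0 had an unadjusted p under 0.05 (5.2% of genes) by edgeR, and DESeq2 called 0. Egr3 was 85.0 to 114 CPM in D1-input and 72.2 to 104 CPM in D2-input, at 0.12 ± 0.07 on the log2 scale, and Egr1 was -0.09 ± 0.13.

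**Figure D3:**
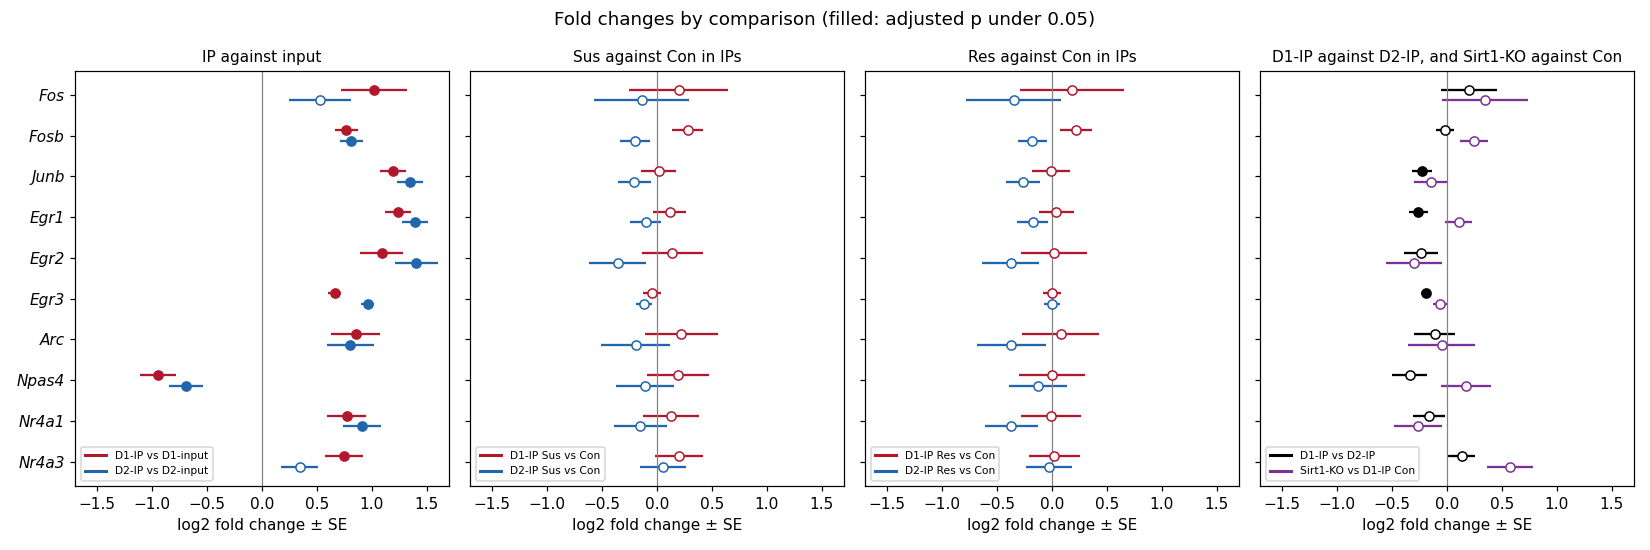
Log2 fold change ± SE of each gene by comparison, filled where the adjusted p is under 0.05 (edgeR). The values of IP against input run from -0.95 for Npas4 to 1.41 for Egr2, and all values between stress groups and for the libraries labelled Sirt1-KO are open circles.

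Stress groups within each MSN type were compared to ask whether the genes follow susceptibility. None passed. In D1-IP edgeR called 0 of 10 members between Sus and Con (0% of genes), between Res and Con (0.00703%) and between Sus and Res (0%), and 0 of 10 had an unadjusted p under 0.05 in the 3 comparisons, where 5.34%, 2.11% and 4.23% of genes did. In D2-IP it called 0 of 10 for Sus and Con (0%), Res and Con (0%) and Sus and Res (0%), and again 0 of 10 at an unadjusted p under 0.05, against 3.68%, 3.02% and 1.66% of genes. DESeq2 also called 0 members in all 6.

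Fos shows how much pools of 1 group varied. Its CPM in D1-IP was 9.92, 20.6, 10.6 and 2.72 in Con, 17.3, 12.7, 11.1 and 8.84 in Res, and 9.28, 7.60, 22.5, 13.1 and 10.5 in Sus. In D2-IP it was 14.3, 5.89, 7.90, 14.3 and 15.3 in Con, 5.41, 15.1, 12.6, 3.16 and 9.55 in Res, and 8.13, 6.88, 4.84, 9.45 and 23.3 in Sus. Values within a group lay up to several fold apart, most of all in D1-IP Con, and the groups overlapped throughout. The log2 difference of Sus from Con was 0.20 ± 0.45 in D1-IP and -0.14 ± 0.43 in D2-IP. Each was smaller than its SE, and a difference would have to lie well beyond its SE to pass with these pools.

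Fosb, whose long-lived splice product ΔFosB is known to build up in the NAc under chronic stress, came closest to a difference; the gene counts do not separate the splice forms. In D1-IP it was 17.2, 17.5, 16.3 and 12.8 CPM in Con, 17.98, 18.7, 19.3 and 18.4 CPM in Res, and 17.99, 16.4, 19.8, 24.1 and 18.9 CPM in Sus. All Res libraries lay above all Con libraries, as in 1.72% of genes, with an exact permutation p of 0.0286, the smallest that 4 against 4 allows, but edgeR gave 0.22 ± 0.15 with an adjusted p of 1.0. Sus and Con overlapped (0.28 ± 0.14, adjusted p = 0.846, edgeR).

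In D2-IP Fosb had the opposite sign. It was 21.4, 15.1, 16.7, 21.0 and 24.1 CPM in Con, 13.4, 19.8, 20.7, 15.1 and 17.95 CPM in Res, and 13.6, 15.7, 15.9, 20.1 and 20.5 CPM in Sus, with -0.20 ± 0.13 for Sus against Con. The difference of the stress effect between the 2 MSN types was 0.48 ± 0.19 on the log2 scale (unadjusted p = 0.0192, adjusted p = 1.0, edgeR). It was the 1 member of 10 with an unadjusted p under 0.05 for Sus against Con (1.82% of genes), and there were 0 for Res against Con (2.36%) and 0 for Sus against Res (2.03%). With adjustment 0 members were called in each of the 3 (0%, 0% and 0% of genes), and DESeq2 called 0.

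The 10 genes had like signs in each type. For Sus against Con 9 of 10 were positive in D1-IP, with a median log2 difference of 0.17, and 1 of 10 in D2-IP, with a median of -0.15. For Res against Con 8 of 10 were positive in D1-IP (median 0.02) and 1 of 10 in D2-IP (median -0.22). Medians over all genes were within 0.01 of 0. These contrasts share their Con libraries, and since the genes moved together between pools of a group (below), the signs are not independent of each other. Marker lists of other cells also had like signs for Sus against Con, with 0 genes called: in D1-IP 6 of 6 cortical (median 0.32) and 6 of 6 astrocyte markers (median 0.30) were positive and 0 of 6 D2-MSN markers (median -0.23, 5 with an unadjusted p under 0.05), and in D2-IP the cortical median was 0.21 and the astrocyte median 0.27. Their part was not tested. The signs in D1-IP rested on D1-IP Con 4, the lowest Con library for 9 of 10 members: without it 3 of 10 were positive for Sus against Con (median -0.04) and 1 of 10 for Res against Con (median -0.13). In D2-IP, 0 of 10 were positive for Sus against Con without D2-IP Sus 5 (median -0.33).

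In inputs, with the line as a covariate, edgeR called 0 of 10 members between Sus and Con (0% of genes), Res and Con (0%) and Sus and Res (0%), and DESeq2 called 0. At an unadjusted p under 0.05 there were 0 for Sus against Con (4.47% of genes), 0 for Res against Con (3.23%) and 1 for Sus against Res (5.54%). That gene was Npas4, at 11.6, 15.9 and 18.5 CPM in D1-input Sus, 18.8, 21.6 and 28.6 in D1-input Res, 16.1, 14.1 and 24.9 in D2-input Sus and 19.5, 21.7 and 19.0 in D2-input Res. The groups overlapped, with a log2 difference of -0.35 ± 0.15 (unadjusted p = 0.0272, adjusted p = 0.901, edgeR). Fos, at 0.30 ± 0.28 for Sus against Con, rested on the 16.0 CPM of D2-input Sus 3: without that library its value was -0.10.

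Sirt1, a deacetylase gene, was first checked in the libraries labelled Sirt1-KO. It was 13.1, 16.6, 14.8 and 14.4 CPM in the D1-IP Con libraries and 15.2, 16.2, 13.2 and 10.2 CPM in those labelled Sirt1-KO, a log2 difference of -0.10 ± 0.13 (adjusted p = 0.768, edgeR). The groups overlapped. The floxed part of the gene was not given in the sources used here, and counts over the whole gene do not check a deletion within it. Genotype cannot be told apart from any difference in when the libraries were made and sequenced. The cortical marker sum was 850 to 1630 CPM in the libraries labelled Sirt1-KO and 389 to 1078 CPM in D1-IP Con. The sum of 6 D1-MSN markers was 911 to 1113 and 1232 to 1503 CPM, in the same order. That of 5 general MSN markers was 3292 to 4665 and 4518 to 5807 CPM. The part of these sums in the values below was not tested.

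Between these groups 0 of 10 members were called (1.66% of 13626 genes) and 1 had an unadjusted p under 0.05 (17.3% of genes), and DESeq2 called 0. That gene was Nr4a3, at 17.1, 28.9, 34.9 and 19.9 CPM in D1-IP Con and 45.6, 38.2, 38.9 and 26.9 CPM in the libraries labelled Sirt1-KO. All but 1 of the latter lay above all Con libraries. The log2 difference was 0.57 ± 0.21 (unadjusted p = 0.0189, adjusted p = 0.186, edgeR).

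Nr4a1, of the same family, had a negative sign (-0.26 ± 0.22), with 67.3, 75.4, 80.2 and 39.3 CPM in D1-IP Con and 40.0, 51.5, 51.5 and 76.5 CPM in the libraries labelled Sirt1-KO. Egr2 was 5.77, 5.79, 6.23 and 2.96 CPM in D1-IP Con and 3.30, 3.66, 3.78 and 6.37 CPM in the others (-0.30 ± 0.25). The remaining 7 genes had log2 differences from -0.14 ± 0.15 (Junb) to 0.35 ± 0.39 (Fos).

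The genes also differed between pools of the same group. After removal of group means, the SD of log2 CPM over the 28 IP libraries was 0.80 for Fos, more than in 98.1% of all genes, 0.57 for Arc, 0.48 for Npas4, 0.46 for Egr2, 0.43 for Nr4a1 and 0.37 for Nr4a3. Junb (0.27), Egr1 (0.25) and Fosb (0.23) varied less, and Egr3 at 0.13 varied less than the median gene (0.16). In inputs Fos had an SD of 0.57 and Egr3 one of 0.17.

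Most of the genes moved together between pools. Of 45 pairs, 32 had a correlation past the threshold for both Pearson's r and Spearman's rho (permutation test within groups, two-sided, adjusted over the 45 pairs), with r from 0.51 to 0.95. Arc and Fos were closest (r = 0.95, rho = 0.92, adjusted permutation p = 4.09e-05 and 5e-05; r = 0.94 without D1-IP Con 4 and D2-IP Res 4), and r was 0.96 within D1-IP and 0.95 within D2-IP. Arc and Junb (r = 0.92, rho = 0.94), Egr1 and Junb (0.91 and 0.91), Egr1 and Nr4a1 (0.88 and 0.86) and Egr1 and Egr2 (0.88 and 0.89) followed, each at the same adjusted permutation p of 4.09e-05 for r, which comes from the smallest p the permutations can give, 1e-05. The 32 pairs kept r of at least 0.45 when the 2 libraries farthest from the median were left out.

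Egr3 stood outside this pattern. Its 9 correlations ran from -0.16 with Nr4a1 to 0.26 with Egr2, and none passed (lowest adjusted permutation p 0.280 for r). Within D1-IP they were 0.06 to 0.41 and within D2-IP -0.29 to 0.19. Nr4a3 was in between: its r was 0.70 with Egr1, 0.63 with Egr2, 0.60 with Nr4a1 and 0.51 with Junb, which passed, and 0.27 to 0.43 with Npas4, Fosb, Arc and Fos, which did not. The difference between the correlations of Egr3 and those of the others was not itself tested.

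**Figure D4:**
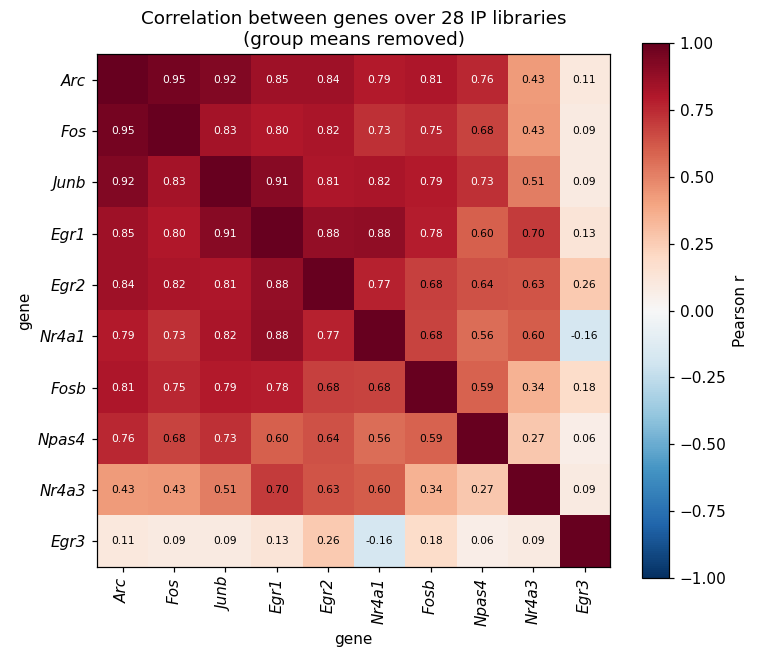
Pearson's r for each pair of genes over 28 IP libraries after removal of group means. Arc, Fos, Junb, Egr1 and Egr2 form the block of high r (0.80 to 0.95), and the row of Egr3 stays between -0.16 and 0.26.

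Some pools stood out for nearly all of the genes. D1-IP Con 4 was below its group mean for 10 of 10 genes and the lowest of its group for 9, with Fos at 2.72 CPM and Arc at 30.1 CPM. D1-IP Sus 1 and D2-IP Res 4 were also below for 10 of 10. D2-IP Sus 5 was the highest of its group for 9 of 10, with Fos at 23.3, Arc at 151 and Nr4a1 at 148 CPM, and D1-IP Sus 3 for 8 of 10. D2-IP Sus 5 also had the highest share of reads without a gene among the IPs (28.27%). Over all genes its chi-square per gene was 45.95 to 68.26 against the others of its group, which had 5.15 to 24.82 among themselves. The mean deviation of the 10 genes had r = -0.18 with the counts on genes, -0.31 with the astrocyte marker sum and 0.42 with the cortical marker sum (0.25 without 2 libraries). Within D1-IP and D2-IP, r was 0.07 and -0.36 for the counts, -0.55 and -0.02 for the astrocyte sum and 0.43 and 0.45 for the cortical sum. These are given as descriptions, and their part in the pattern was not tested.

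**Figure D5:**
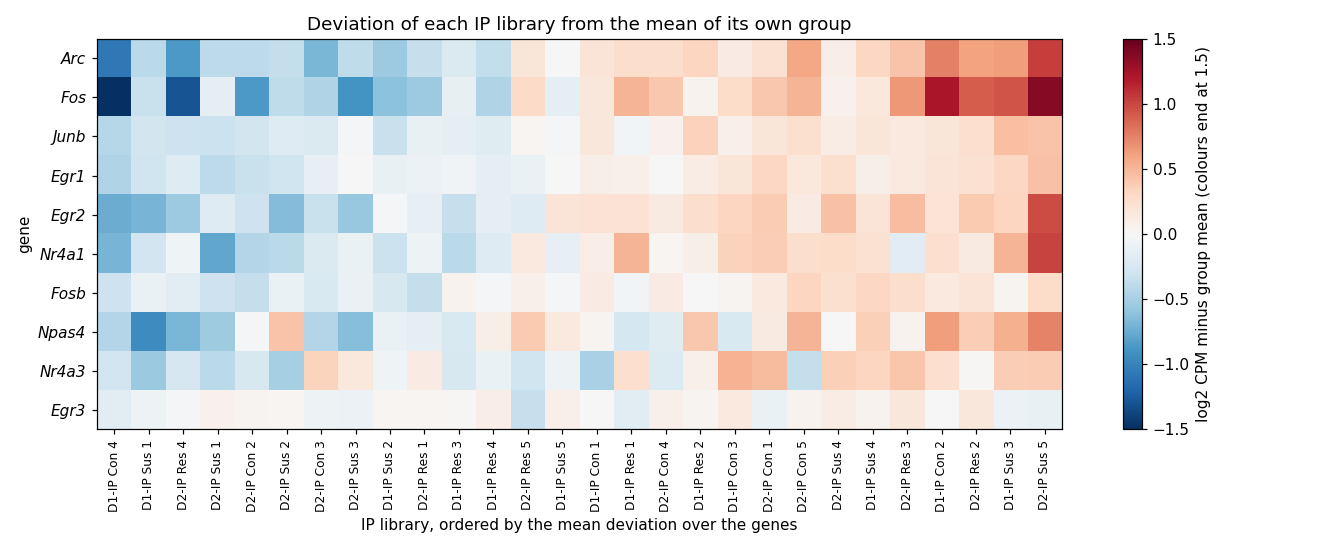
Log2 CPM minus the mean of the library's own group, for the 10 genes (rows) in the 28 IP libraries (columns, ordered by their mean deviation). D1-IP Con 4 at the left is the lowest of its group and D2-IP Sus 5 at the right the highest of its group for 9 of 10 genes each, whereas the row of Egr3 hardly changes colour.

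No relation was detected between IP and the input of the same number. Over 18 such pairs, with group means removed, r ran from -0.30 (Fos) to 0.41 (Egr1) and rho from -0.30 to 0.34, with 0 of 10 passing after adjustment over the 10 genes (lowest adjusted permutation p 0.696 for r and 0.954 for rho). D2-input Sus 3 had 16.0 CPM of Fos where D2-IP Sus 3 had 4.84 CPM. Genome-wide, 3 of 18 such pairs deviated together with r over 0.1, so the numbers are not shown to mark the same pool.

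The genes closest to the mean of the 10 over the 28 IP libraries, out of 14214 others, were Dusp1 (r = 0.91), Egr4 (0.91), Btg2 (0.91), Dusp6 (0.86), Arl4d (0.84), Ptgs2 (0.81), Jun (0.79), Klf10 (0.77), 2900026A02Rik (0.74) and Dnajb5 (0.74). Dusp1 and Dusp6 encode phosphatases that shut off MAP kinases, Egr4 is the remaining EGR factor, Ptgs2 encodes the inducible cyclooxygenase and Jun is an AP-1 partner of Fos. On a list of 80 other activity-regulated genes, 28 of the 76 compared had r over 0.5 (36.8%), against 1.99% of all other genes. The list's median r was 0.35 and that of the other genes -0.01.

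The same list gave the wider pathway in each comparison. Between D1-IP and D2-IP 22 of 76 were higher and 15 lower in D1-IP, where 19.6% and 21.3% of all genes were, with a median log2 difference of 0.02. Pdyn (2.35 ± 0.09), Bdnf (2.60 ± 0.22), Tac1 (0.79 ± 0.06) and Rgs4 (0.36 ± 0.03) led those higher in D1-IP, and Penk (-1.40 ± 0.05), Plk2 (-0.31 ± 0.04), Per1 (-0.26 ± 0.05) and Rgs2 (-0.24 ± 0.04) those lower. Pdyn, Tac1 and Penk are neuropeptide genes that also mark the MSN types. Bdnf was 10.2 ± 4.28 CPM in D1-IP and 1.63 ± 0.616 CPM in D2-IP (SD). The cortical marker sum had the same direction (389 to 1408 against 25.1 to 311 CPM), and its part in Bdnf was not tested.

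Against input, 52 of 78 were higher and 17 lower in D1-IP (median 0.46), where 39.2% and 42.7% of all genes were, and 44 and 24 in D2-IP (median 0.27), where 37.8% and 44.9% were. Vgf (1.44 ± 0.04 and 1.51 ± 0.04, D1 line first) and Scg2 (1.21 ± 0.05 and 1.07 ± 0.04), both of secretory granules, were among the highest. So was Penk, a D2-MSN marker that was higher in IP in both lines (1.43 ± 0.07 and 2.98 ± 0.07). Id1 (-2.92 ± 0.16 and -2.97 ± 0.15) and Zfp36 (-2.57 ± 0.19 and -2.78 ± 0.18), which encodes an RNA-decay factor, were among the lowest. Between stress groups edgeR called 0 of 76 in either IP. In the libraries labelled Sirt1-KO 0 were higher and 2 of 75 lower than in D1-IP Con, with 1.66% of all genes called in either direction. They were Rps6ka5 (-0.43 ± 0.07, adjusted p = 0.0149) and Pdyn (-0.37 ± 0.08, adjusted p = 0.0448, edgeR). Pdyn is among the D1-MSN markers, whose sum was also lower in these libraries (above), and the part of that in Pdyn was not tested.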

How the data were processed

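RNA-seq counts per gene were deposited by the authors in 2 tables, one with the D1 and D2 IPs and inputs and one with the Sirt1-floxed libraries and 4 D1-IP Con libraries whose counts are identical in both. Per the labels, libraries were poly-A selected with a stranded kit, and the processing notes name cutadapt, STAR, HTSeq, FastQC, DESeq2 and HOMER with build mm10. Their versions were not given in the sources used here. Entries without a gene (18.02 to 39.99% of reads) and 2 columns that match no sample were left out, and of 5 symbols with a second row the first was kept. The lowest chi-square per gene between replicates was 3.51 over 76 pairs; 0 pairs agreed within sampling noise.

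Counts were tested with edgeR 4.0.16 (R 4.3.3; filterByExpr, minimum count 10 and total 15; TMM; quasi-likelihood; Benjamini-Hochberg over all genes tested), with a mean for each group: 28 IPs, 46 IPs and inputs, 18 inputs (line or stress as covariate) and 8 D1-IP Con and Sirt1-KO libraries were fitted separately. Errors of fold changes are SE, and p-values are two-sided. A gene was called at an adjusted p under 0.05. CPM of single genes are counts per 1000000 of the TMM-scaled total on genes that passed the filter. Marker sums used the unscaled total on all genes. The stress experiment and the Sirt1-KO comparison were scaled separately, so the CPM of the same D1-IP Con libraries differ slightly between them. Correlations used log2 CPM with a prior count of 2 and 100000 permutations. Alternatives were RLE, library totals alone (IP against input), other filters, DESeq2 1.42.0, a fold limit of 1.5, a replicate block and leaving out each library. The scripts were tested on simulated data. Promoters came from RefSeq (GRCm38.p6). The labels do not say whether pools of a group were housed or processed together, so p-values measure the spread between these pools. The 10 genes and all lists were chosen with earlier results of these data known. All 10 are named in each comparison; from the list of 80, up to 4 called genes a direction with the smallest p, and the 10 genes with the highest r to the mean of the 10.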

Additional observations from a re-analysis of the deposited data

Results flagged for a closer look

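In groups of 4 or 5 libraries, 5 of 70 combinations of gene and group had 1 library far from the others by Dixon's test, which chance gives in about 1 in 20. Of these, 2 sat in D2-IP Sus 5, with Fos at 23.33 CPM (the next library had 9.45) and Arc at 150.7 CPM (next 79.3). Egr2 was 3.113 CPM in D1-IP Con 4, where the next had 6.10. In the library labelled Sirt1-KO 5, Egr2 was 6.371 CPM (next 3.78) and Egr3 was 152.7 CPM (next 140.3).

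The enrichment of Egr3 in IP over input differed between the lines, by -0.3012 on the log2 scale (0.66 in the D1 line and 0.96 in the D2 line, adjusted p = 0.00563, edgeR). At this threshold 25.5% of 15404 genes tested differed. With Con libraries alone the difference did not pass (adjusted p = 0.173, edgeR).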

How the results depend on the processing

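Of 64 alternatives to the counts of members called, leaving out single libraries aside, 58 gave the same count or one within 1.5-fold of it. The loss of Junb alone between D1-IP and D2-IP falls within this limit, so the 58 can hide changes of single calls. With a fold over 1.5 as well, 0 members were called between D1-IP and D2-IP, and 0 for the difference of enrichment between lines, which was also 0 with Con libraries alone. At an unadjusted p under 0.05 there was 1 member for the interaction of stress and MSN type (Sus against Con, 1.82% of genes). There was also 1 for the stress groups of the inputs (Sus against Res, 5.54% of genes). With a replicate block the Sirt1-KO comparison called 1 member, Nr4a3 (0.82, adjusted p = 0.00761, edgeR), and 1618 genes against 226 without it. The block also gave 19 of 20 against input, with Nr4a3 in the D2 line gained (0.44, adjusted p = 0.0107), and it called Egr3 in Con and Res. It left Junb called between D1-IP and D2-IP (adjusted p = 0.0268), and the counts at 3 of 10 there and 0 for stress. Apart from the Sirt1-KO comparison, the share of all genes called with the fold limit or the block is not given here. Those counts of members therefore have no background beside them. No comparison had all same-numbered pairs over a correlation of 0.1, so the numbers were not taken to pair samples: they were 3 of 18 for IP and input, 0 of 3 for Sirt1-KO, 3 of 12 for stress groups in D1-IP, 7 of 15 in D2-IP and 7 of 18 in inputs, and 7 of 13 between D1-IP and D2-IP. In D2-IP 10 of 15 correlated best with their own number, 5 of 5 between Res and Con, which is a hint from the data only.

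Leaving out single libraries gave 2 to 4 members between D1-IP and D2-IP, 0 to 2 within single stress groups, 18 to 20 of 20 against input (18 with all libraries), 1 throughout for the difference of enrichment and 0 throughout for stress, inputs and Sirt1-KO. In the Sirt1-KO comparison the genes called ranged from 41 to 1020. Of all genes, 5328 to 5910 were called between D1-IP and D2-IP and 3500 to 4230 for the difference of enrichment. Against input, 25231 to 25495 calls were made over both lines added together, where 15404 genes were tested per line with all libraries. Within single stress groups, 6038 to 7359 calls were made over all groups added together. The single values were also counted under the other alternatives and the permutation tests, leaving out single libraries aside. Of these, 1552 stayed, 12 gained and 9 lost their call. A further 67 changed sign while not called, and none reversed. The cause was not tested. Depth limits Egr2 most, and 4 or 5 pools a group limit Fos and Arc.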
